A study of Homo sapiens with 402 samples.

Results

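The integrated stress response genes described here are 40 listed genes: the transcription factor ATF4, its partners and targets, the cytosolic aminoacyl-tRNA synthetases that ATF4 is known to drive, and the tRNA exporter XPOT. They were chosen by name, but with earlier results of these data known. All 40 were found among the 34718 gene symbols of the second sequencing run and the 15081 of the first, 12 of them under newer symbols (AARS as AARS1, CARS as CARS1 and so on), and all 40 passed the filter on low counts on every plate. They were followed through 21 chemicals at 4 doses in MCF10A cells, an established line of human mammary epithelium that does not form tumours.

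In the integrated stress response, kinases that sense unfolded protein, missing amino acids, heme shortage or double-stranded RNA phosphorylate the initiation factor eIF2. Most translation then slows while the ATF4 message is translated better, and ATF4, paired with C/EBP proteins, switches on genes that make, import and charge amino acids, as well as feedback and cell death genes. Arsenic and cadmium compounds are textbook triggers of this response in cultured cells.

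Cells of passage 105 were plated in 384-well plates and exposed for 48 h, and cDNA was made directly from the lysate of each well. Arsenic, cadmium, copper, lead and mercury shared 15 water controls on the plate named 3153-AT. BPA, BPF, BPS, MPB and PPB had 15 DMSO controls on plate 3206-AT, and DCB_14, DCP_25, PCB153, PCB187 and thiram had 15 DMSO controls on plate 3284-AT. PFDA, PFNA, PFOS and phenanthrene had 12 DMSO controls on plate 3240-AT, where PFOA had 4 water controls. DDE was run apart in the first sequencing run. Its 16 libraries are labelled DMSO and its 8 controls are labelled water and 3153-AT but carry the DDE plate's barcode, so that for DDE the solvent and the chemical cannot be told apart. All groups are wild-type cells of the same line. Each dose group had 4 wells, except MPB and PPB at 0.025 µM with 3 and cadmium at 25 µM with 2, because the third cadmium library carried another plate's barcode and was left out.

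Of 402 libraries, 401 were used, 333 of all libraries being dosed and 69 being controls. The median total was 12.6 M counts (M, mega), with a range of 1.43 M to 25.8 M. Basal epithelial keratin and adhesion markers were present in the controls of every plate, 12 of 12 with a median of at least 1 CPM (the usual library-scaled count, here on TMM-scaled library sizes). The labels call the wells of a group biological replicates of 1 cell line and 1 passage, so the p-values measure the spread between these wells, which may be partly technical. In such bulk samples, fewer cells of a kind and less RNA per cell cannot be told apart.

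The DNA element to which ATF4 and C/EBP proteins bind together is commonly written TGATGNAA. It was searched on both strands (the other strand reads TTNCATCA) in the 250 bases before and 50 bases after the gene start, in the RefSeq promoter windows of GRCh38.p14. A window was found for 34 of the 40 genes, and 13 of these 34 (38.2%) held the element, against 1217 of 27305 symbols with a window (4.46%). The share was 63.6% among synthetases and XPOT (7 of 11) and 42.9% among other ATF4 targets outside the 40 (9 of 21). Among the cytosolic synthetases and their scaffold proteins that are not among the 40, 0 of 9 windows held it, and among mitochondrial synthetases 1 of 14. A match is a description of letters and not a measured binding site. The following windows of 60 bases are shown because their genes recur below, each 5′ to 3′ on the gene's strand with the element in capitals.
CEBPG (chr19:33374045-33374104, + strand): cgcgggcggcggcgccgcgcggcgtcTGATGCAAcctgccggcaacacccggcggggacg
CHAC1 (chr15:40953236-40953295, + strand): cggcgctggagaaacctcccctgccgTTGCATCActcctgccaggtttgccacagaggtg
ASNS (chr7:97872443-97872502, - strand): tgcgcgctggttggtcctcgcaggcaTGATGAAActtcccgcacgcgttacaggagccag
SLC1A5 (chr19:46784878-46784937, - strand): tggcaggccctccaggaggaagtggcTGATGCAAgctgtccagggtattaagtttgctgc
AARS1 (chr16:70289660-70289719, - strand): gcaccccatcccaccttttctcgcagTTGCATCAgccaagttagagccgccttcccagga
GARS1 (chr7:30594818-30594877, + strand): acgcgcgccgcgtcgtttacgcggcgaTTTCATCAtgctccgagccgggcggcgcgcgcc
IARS1 (chr9:92293698-92293757, - strand): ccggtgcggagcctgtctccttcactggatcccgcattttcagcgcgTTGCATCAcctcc
The element lies 42 bases before the start of CEBPG, 209 before that of CHAC1, 68 before that of ASNS, 97 before that of SLC1A5, 187 before that of AARS1, 33 before that of GARS1 and 13 before that of IARS1. The other genes of the 40 with the element were SLC3A2, SLC7A1, CARS1, MARS1, NARS1 and TARS1.

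Arsenic, thiram and cadmium moved these genes at 25 µM, arsenic most of all. At an adjusted p under 0.05 (edgeR's quasi-likelihood test with Benjamini-Hochberg adjustment over all genes), arsenic raised 34 of the 40 genes and lowered 5, where 41.4% of all genes tested were called. Thiram, a dithiocarbamate fungicide, raised 27 and lowered 5, against 25.9% of all genes called. Cadmium raised 11 and lowered 8, against 11% of all genes called. The median log2 fold change of the 40 genes was 1.41 in arsenic, where that of all genes was 0.00, and 0.67 in thiram, where that of all genes was -0.11. In cadmium it was -0.29 against -1.42 for all genes. It was -0.20 over the 37 genes that remain when genes without a count are set at their bound or, if they have none, left out. No such bound was set for the all-gene value. That value covers 24295 tested genes, where the 2 cadmium libraries detected 10241 and 10579 genes, so the 2 medians are not strictly alike. The heat map of the 25 µM groups shows these 3 chemicals beside columns with few or no called genes.

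**Figure D1:**
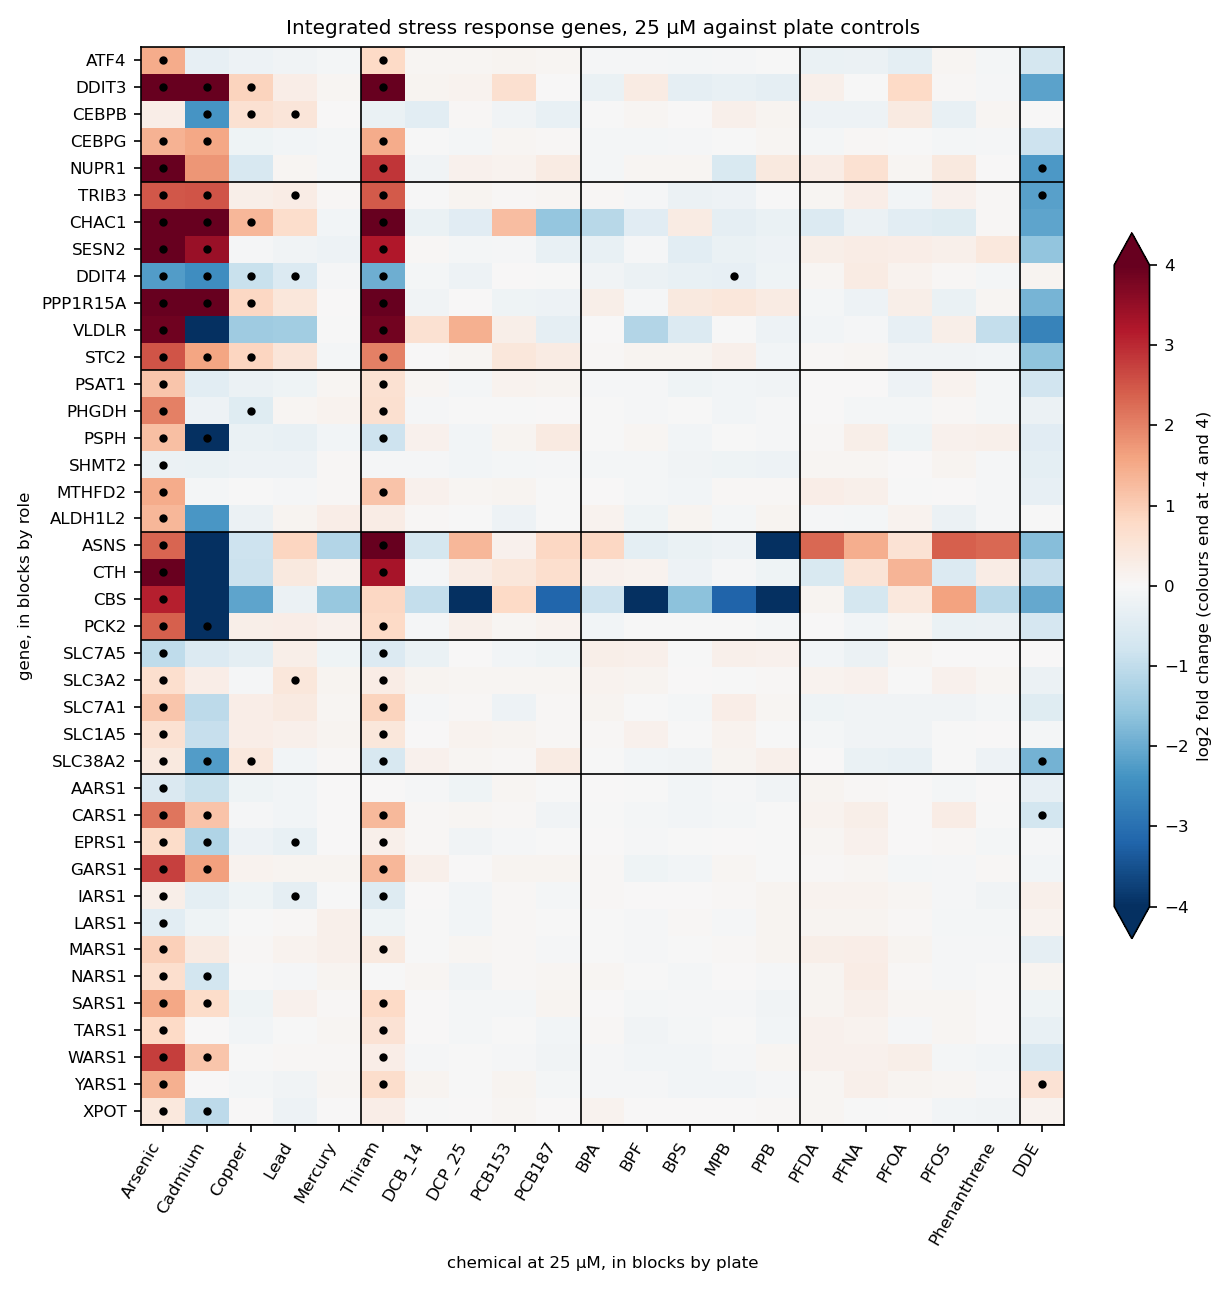
Log2 fold change of the 40 genes (vertical, in blocks by role) at 25 µM against the controls of the same plate, for the 21 chemicals (horizontal, in blocks by plate). Colours end at -4 and 4, and dots mark called genes; outside DDE, strong colours without a dot belong mostly to genes with few counts, such as ASNS, CBS and VLDLR. Arsenic, with 34 genes called higher, and thiram, with 27, fill most of their columns, while cadmium holds genes of both signs.

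Among the transcription factors, DDIT3, which encodes CHOP, a factor tied to cell death under lasting stress, rose in all 3 chemicals, while ATF4 rose in arsenic and thiram. DDIT3 stood at 303.6, 311.7, 326.1 and 335.5 CPM in the 4 arsenic libraries and at 345.3 and 548.9 CPM in the 2 cadmium libraries, where the 15 water controls ranged from 0 to 9.158 CPM with a median of 5.853 CPM. In thiram its libraries read 56.11, 88.37, 163.1 and 211.0 CPM beside DMSO controls of 0 to 12.23 CPM with a median of 6.377 CPM. No treated library overlapped its controls. The log2 fold changes were 5.58 ± 0.19 (SE, adjusted p = 4.1e-45) for arsenic, 6.06 ± 0.34 (adjusted p = 2.3e-28) for cadmium and 4.13 ± 0.24 (adjusted p = 2.3e-30) for thiram. DDIT3 shares 27.2% of its exon bases in GENCODE v29 with MARS1 on the opposite strand, and whether the counting used strand is not given in the sources used here.

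The ATF4 message itself was at 490.1, 495.8, 579.4 and 585.1 CPM in arsenic, above every water control (147.8 to 213.8 CPM, median 191.0 CPM), with a log2 fold change of 1.48 ± 0.10 (adjusted p = 1.2e-23). In thiram it was at 275.0, 302.4, 345.7 and 467.8 CPM, above every DMSO control (163.2 to 247.4 CPM, median 202.4 CPM), with 0.79 ± 0.12 (adjusted p = 4.8e-08). In cadmium the libraries held 134.3 and 176.4 CPM, within or below the control range, and the test did not call a difference (-0.32 ± 0.24, adjusted p = 0.61). Cadmium libraries thus combined DDIT3 above both other chemicals' libraries with an ATF4 message no higher than in controls.

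CEBPG, a dimer partner of ATF4, rose in all 3 chemicals, by 1.39 ± 0.10 in arsenic, 1.55 ± 0.27 in cadmium and 1.49 ± 0.16 in thiram on the log2 scale. Its levels were 88.3 to 108.6 CPM in arsenic and 94.17 and 121.8 CPM in cadmium, against at most 59.13 CPM in the water controls. CEBPB, another C/EBP factor, was not called in arsenic (0.28, adjusted p = 0.11) or thiram (-0.27, adjusted p = 0.37) and fell by 2.37 in cadmium (26.37 and 46.21 CPM against controls of 115.4 to 246.1 CPM). NUPR1, a small stress-induced chromatin protein, went from a median of 19.51 CPM in the water controls to between 716.1 and 879.6 CPM in arsenic (5.09 ± 0.20). It rose by 2.86 ± 0.18 in thiram, and in cadmium its 76.59 and 84.02 CPM lay above all controls without passing the test (1.77 ± 0.66, adjusted p = 0.073).

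Feedback and stress effectors gave the largest rises. CHAC1, an enzyme that degrades glutathione, was at 224.9, 226.1, 233.0 and 239.6 CPM in arsenic, 62.78 and 63.01 CPM in cadmium and 70.14, 91.49, 125.8 and 146.2 CPM in thiram. No water control exceeded 3.734 CPM and no DMSO control of the thiram plate exceeded 3.779 CPM (medians 1.087 and 1.651 CPM). The log2 fold changes were 7.33 ± 0.18 in arsenic, 5.45 ± 0.60 in cadmium and 5.94 ± 0.25 in thiram. The 4 arsenic libraries differed among themselves by far less than the 4 thiram libraries did.

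TRIB3, a pseudokinase that restrains the response, reached 605.2, 731.1, 746.6 and 858.1 CPM in arsenic, 689.3 and 809.4 CPM in cadmium and 338.6, 450.0, 693.1 and 775.3 CPM in thiram. Its water controls lay between 112.7 and 169.5 CPM (median 129.5 CPM) and its DMSO controls between 88.86 and 127.3 CPM (median 104.5 CPM). The rises were alike in size: 2.48 ± 0.08, 2.51 ± 0.13 and 2.44 ± 0.10 on the log2 scale. Arsenic and cadmium differed by -0.03 (95% interval -0.329 to 0.278), which was not called.

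PPP1R15A encodes GADD34, the phosphatase subunit that reverses eIF2 phosphorylation, and was highest in cadmium. Its 2 cadmium libraries held 2173 and 2226 CPM, its arsenic libraries 572.1 to 641.2 CPM and its thiram libraries 900.5 to 1567 CPM, against water controls of 8.812 to 27.05 CPM and DMSO controls of 10.91 to 30.23 CPM. The log2 fold changes were 7.03 ± 0.17, 5.17 ± 0.14 and 5.84 ± 0.13 in that order. SESN2, a sestrin that inhibits mTORC1 when leucine is scarce, rose by 4.27 in arsenic, 3.44 in cadmium and 3.19 in thiram, and STC2, a secreted glycoprotein, by 2.53, 1.59 and 2.03. VLDLR, a lipoprotein receptor, rose by 3.88 in arsenic and 3.87 in thiram from control medians under 1 CPM. It had no count in either cadmium library.

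DDIT4 went the other way in all 3 chemicals. This gene encodes REDD1, an mTORC1 inhibitor induced by hypoxia and glucocorticoids as well as by ATF4. The arsenic libraries held 174.6, 177.2, 196.4 and 211.4 CPM and the cadmium libraries 82.87 and 243.7 CPM, all below the water controls (677.1 to 1014 CPM, median 930.8 CPM). The thiram libraries held 130.0, 221.4, 237.4 and 280.7 CPM, below all DMSO controls (592.0 to 1076 CPM). The log2 fold changes were -2.23 ± 0.17, -2.48 ± 0.31 and -1.96 ± 0.19. DDIT4 shares 41.2% of its exon bases with its antisense gene DDIT4-AS1, which is not among the symbols of the files.

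**Figure D2:**
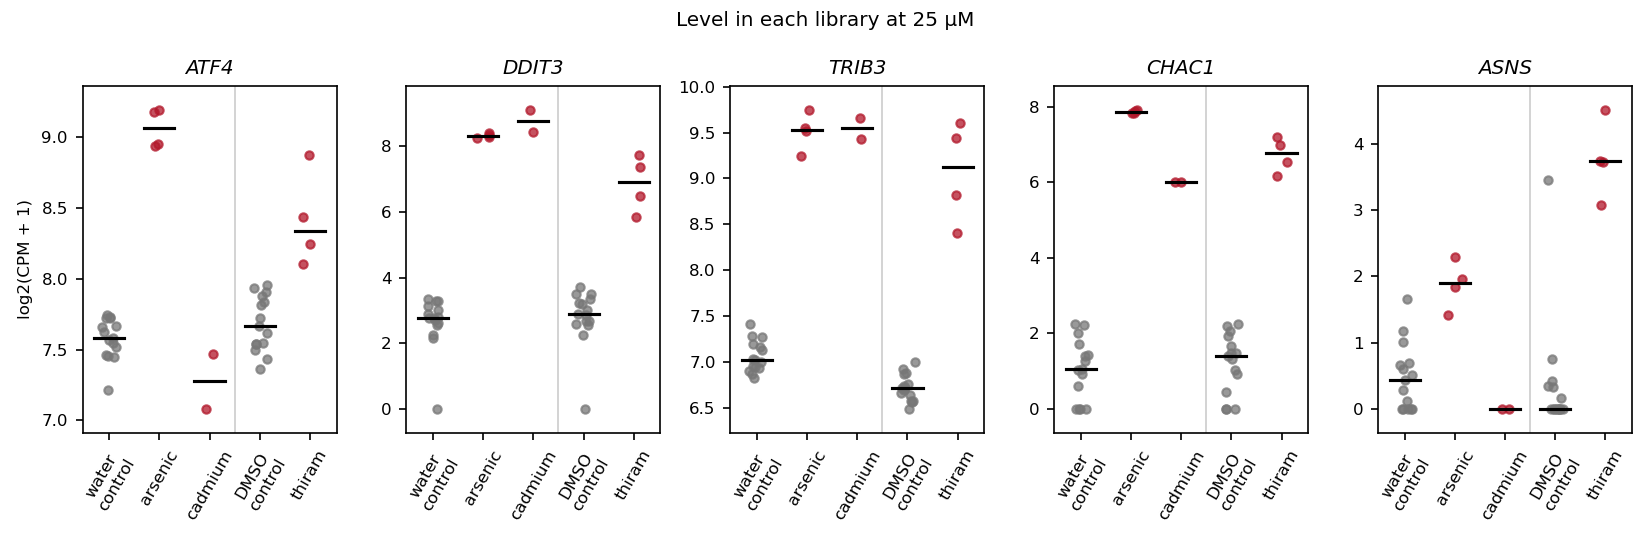
Level of the always-described genes in each library as log2(CPM + 1) (vertical) for the water controls, arsenic 25 µM and cadmium 25 µM left of the line and for the DMSO controls and thiram 25 µM right of it, with bars at the medians. DDIT3, TRIB3 and CHAC1 stand apart from the controls in all 3 chemicals, whereas the 2 cadmium libraries of ATF4 lie at 134.3 and 176.4 CPM, among or below their controls.

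Enzymes that make serine, glycine and one-carbon units rose in arsenic, with 5 of 6 called higher, and in part in thiram, with 3 of 6 higher. The shares of all genes called higher were 23.2% in arsenic, 13.7% in thiram and 5.67% in cadmium. PHGDH, the first enzyme of serine synthesis, was at 572.3 to 702.3 CPM in arsenic against 110.7 to 179.2 CPM in the water controls (2.0 ± 0.09). MTHFD2, a mitochondrial folate enzyme, rose by 1.49 in arsenic and 1.14 ± 0.08 in thiram. PSAT1, the aminotransferase of serine synthesis, rose by 1.11 and 0.62, and ALDH1L2, a mitochondrial folate dehydrogenase, rose by 1.33 in arsenic and was not called in thiram (0.30). SHMT2, the mitochondrial serine hydroxymethyltransferase, was the arsenic exception at -0.22 ± 0.07 (adjusted p = 0.0088), a call that was lost under 7 other settings, including DESeq2 (-0.09). In cadmium none of the 6 was called higher.

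PSPH, the last enzyme of serine synthesis, split the 3 chemicals. It rose in arsenic (94.38 to 103.9 CPM against 26.42 to 52.72 CPM in controls, 1.20 ± 0.10) and fell by 0.82 in thiram (14.18 to 27.57 CPM against 23.64 to 46.63 CPM, adjusted p = 0.0023). The thiram libraries overlapped their controls in part, and the call was lost in the lower numbered libraries alone (-0.62). In cadmium both libraries had 0 counts, which is at least 22.3-fold lower than the pooled controls (44.4 CPM) at a floor of 3 counts over the group (1.99 CPM).

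Of the asparagine, cysteine and anaplerotic enzymes, 4 of 4 were called higher in arsenic and 3 of 4 in thiram, with 0 lower in either, and 0 of 4 were higher in cadmium. The shares of all genes called higher were 23.2% in arsenic, 13.7% in thiram and 5.67% in cadmium. ASNS, asparagine synthetase and a classic ATF4 target, was read at low levels throughout. The arsenic libraries held 1.675, 2.572, 2.872 and 3.902 CPM and the thiram libraries 7.451, 12.23, 12.41 and 21.79 CPM. Control medians were 0.3525 CPM (water, highest 2.157 CPM) and 0 CPM (DMSO, highest 9.95 CPM), so that 1 library of each chemical lay below its highest control. The log2 fold changes were 2.32 ± 0.67 (adjusted p = 0.0024) in arsenic and 5.59 ± 0.63 (adjusted p = 6.6e-14) in thiram, and DESeq2 did not call the arsenic value. Both cadmium libraries had 0 counts of ASNS and also of CBS. For both genes the floor of 1.99 CPM lay above the pooled controls (0.542 CPM for ASNS and 0.424 CPM for CBS). Neither a fall nor a small rise of these genes could therefore be read in cadmium.

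The ASNS counts are limited by overlap: 44.6% of its exon bases in GENCODE v29 lie also in AC079781.5 on the same strand, a symbol of the files with control medians of 1.21 CPM (water) and 0.6647 CPM (DMSO). Reads in shared exons are dropped or split by many counting settings, and the setting is not given in the sources used here. Levels of ASNS against other genes cannot therefore be read from these files.

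CTH, which makes cysteine from cystathionine, rose from control medians of 2.553 and 1.836 CPM to 35.02 to 55.54 CPM in arsenic (3.95 ± 0.25) and 9.95 to 55.55 CPM in thiram (3.31 ± 0.39). In cadmium it had 0 counts, at least 1.44-fold lower than its pooled controls. PCK2, the mitochondrial enzyme that makes phosphoenolpyruvate, rose by 2.38 ± 0.11 in arsenic and 0.81 ± 0.18 in thiram and had 0 counts in cadmium, at least 14.3-fold lower than in controls. CBS, which starts the route from homocysteine to cysteine, rose by 3.10 ± 0.59 in arsenic but from at most 1.166 CPM in controls to 4.501 CPM at most, and DESeq2 did not call it. It has a near-identical copy, CBSL, which is not among the symbols of the files.

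Amino acid carriers moved less. SLC7A1, the cationic amino acid carrier, rose most, by 1.10 ± 0.12 in arsenic (114.2 to 129.9 CPM against 42.46 to 86.64 CPM) and 0.91 ± 0.18 in thiram. SLC7A5, the large neutral amino acid carrier LAT1, fell by 1.03 ± 0.29 in arsenic (354.3 to 511.8 CPM against 588.5 to 1219 CPM) and by 0.56 ± 0.12 in thiram. Its heavy chain SLC3A2 was called higher in both, by 0.69 ± 0.14 and 0.28 ± 0.10, but the thiram call was lost without the first, the second or the third thiram library, and the sign turned in the higher numbered libraries alone (-0.10). SLC1A5, the glutamine carrier ASCT2, rose by 0.61 and 0.44. SLC38A2, the sodium-coupled neutral carrier SNAT2, rose by 0.38 in arsenic and fell by 2.24 in cadmium and 0.65 in thiram.

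Of the 12 listed synthetases and XPOT, 11 of 13 rose in arsenic, 8 rose in thiram and 4 rose in cadmium. The shares of all genes called higher were 23.2%, 13.7% and 5.67% in that order. In arsenic the enzymes for tryptophan and glycine had the largest fold changes of the 13. GARS1 was at 1154 to 1312 CPM in arsenic, 401.9 and 759.6 CPM in cadmium and 275.3 to 484.4 CPM in thiram, with water controls of 155.0 to 236.3 CPM and DMSO controls of 120.5 to 180.5 CPM. Its log2 fold changes were 2.72 ± 0.08, 1.65 ± 0.14 and 1.32 ± 0.09, with no overlap in any of the 3. The GARS1 window printed above holds the element in the form TTTCATCA.

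WARS1, the tryptophanyl enzyme, which interferon also induces, rose by 2.76 ± 0.07 in arsenic (865.8 to 1028 CPM against 114.3 to 169.6 CPM) and 1.11 ± 0.14 in cadmium. In thiram its 136.4 to 180.1 CPM overlapped controls of 88.02 to 168.8 CPM, and the rise of 0.28 (adjusted p = 0.046) was lost when any 1 thiram library was left out. CARS1 rose by 2.15, 1.13 and 1.29 in arsenic, cadmium and thiram, and SARS1, the seryl enzyme, by 1.56, 0.72 and 0.81. YARS1, MARS1 and TARS1 rose by 1.43, 0.94 and 0.79 in arsenic and by 0.69, 0.40 and 0.57 in thiram and were not called in cadmium. Without the second cadmium library CARS1 (0.99) and SARS1 (0.63) were no longer called in cadmium.

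Not all listed synthetases followed. AARS1, the alanyl enzyme, fell by 0.59 ± 0.12 in arsenic (65.3 to 74.91 CPM against 86.95 to 171.4 CPM) although its window holds the element, and LARS1, the leucyl enzyme, fell by 0.41 ± 0.08. EPRS1, the joint enzyme for glutamate and proline, rose by 0.75 ± 0.07 in arsenic and fell by 1.22 ± 0.16 in cadmium (126.0 and 200.9 CPM against 317.4 to 447.4 CPM). Its thiram value of 0.21 (adjusted p = 0.041) was lost under 5 other settings. IARS1, the isoleucyl enzyme, rose by 0.23 in arsenic (adjusted p = 0.024) and fell by 0.52 ± 0.10 in thiram. NARS1 and XPOT rose in arsenic (0.67 and 0.41) and fell in cadmium by 0.74 and by 1.04, but neither cadmium call held with 1 of its libraries left out.

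The synthetases that are not among the 40 did not rise with them. Of the 11 other cytosolic synthetases and scaffold proteins, none was called higher in arsenic and 7 were lower (median -0.79), with AIMP2, a scaffold of the multi-synthetase complex, lowest at -1.77. In thiram 0 were higher and 6 lower, from RARS1 at -0.23 to AIMP2 at -0.79. Of the 17 mitochondrial synthetases, 1 was higher (RARS2, 0.81) and 13 were lower in arsenic, with MARS2 lowest at -3.11, and 0 were higher and 10 lower in thiram, with PARS2 lowest at -2.11. In cadmium 0 were higher in either list, and 3 cytosolic and 4 mitochondrial genes were lower. Over all genes tested, 23.2% were higher and 18.2% lower in arsenic. The shares were 13.7% and 12.2% in thiram and 5.67% and 5.38% in cadmium.

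**Figure D3:**
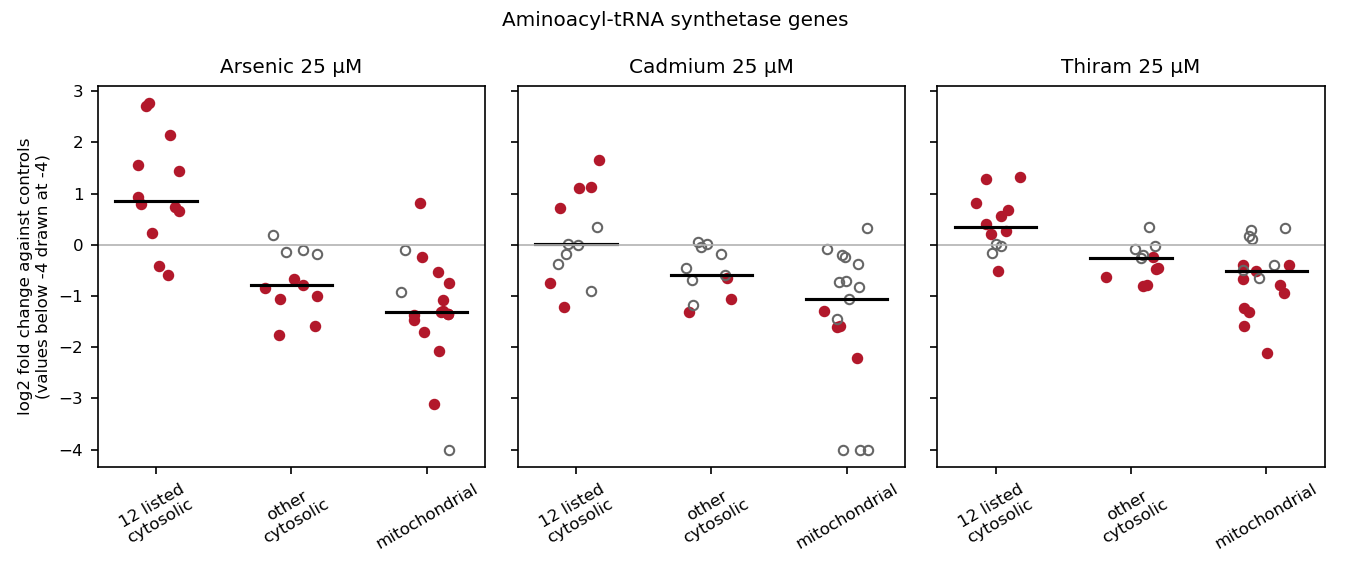
Log2 fold change against plate controls (vertical, values below -4 drawn at -4) of each gene of 3 synthetase lists (horizontal) in arsenic, cadmium and thiram at 25 µM. Filled points are called genes and bars are medians. In arsenic the 12 listed synthetases lie mostly above 0, up to 2.76 for WARS1, and the other cytosolic and the mitochondrial lists mostly below.

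Other parts of the pathway, taken from lists chosen for function, moved as follows. The shares of all genes to set beside these counts are 23.2% higher and 18.2% lower in arsenic. In thiram they are 13.7% and 12.2%, and in cadmium 5.67% and 5.38%. Of 28 further ATF4 targets tested in arsenic, 24 were higher and 2 lower, from NIBAN1 at 10.13 to NFIL3 at -1.35. Of 25 tested in thiram, 18 were higher and 3 lower, from ATF3 at 9.84 to ALDH18A1 at -0.92, and of 28 in cadmium 6 were higher and 2 lower. NIBAN1 in the water controls and ATF3 in the DMSO controls had no count in most libraries, so the sizes of those 2 folds are uncertain. The eIF2 kinases, eIF2B subunits and their regulators were mixed, with 5 of 15 higher and 8 lower in arsenic (PPP1R15B 1.38, OMA1 -1.94) and 3 higher and 4 lower in thiram (PPP1R15B 1.02, OMA1 -1.82).

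Endoplasmic reticulum chaperones, targets of the unfolded protein response beside ATF4, set cadmium apart by their counts. All 10 were called higher in cadmium, with a median log2 fold change of 2.92 and HSPA5, the chaperone BiP, at 4.29. In arsenic 4 were higher and 3 lower (DNAJB9 2.84, PDIA4 -1.71), and in thiram 3 were higher and 1 lower (DNAJB9 3.13, PDIA4 -0.64). Of all genes, 5.67% were called higher in cadmium, 23.2% in arsenic and 13.7% in thiram. These are counts of calls, and the lists were not tested against each other.

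Depth and cell markers moved with these groups. The 2 cadmium libraries had totals of only 1.43 M and 1.45 M and detected 10241 and 10579 genes, where water controls detected 12285 to 18571 and arsenic libraries 16793 to 18822. Thiram libraries, with totals of 2.46 M to 6.29 M, detected 13110 to 15095 genes, where their DMSO controls detected 12014 to 17842. Of 12 basal markers, 10 were lower and 2 higher in arsenic (KRT5 -3.36, TP63 -4.33), although 11 had a median of at least 1 CPM, in cadmium 4 were higher and 4 lower, with TP63 at 0, and in thiram 4 were higher and 3 lower. Summed over the list, basal markers gave 3885 to 4530 CPM in arsenic, 11590 to 12960 CPM in cadmium and 5479 to 6460 CPM in the water controls, and 5465 to 6199 CPM in thiram beside 3488 to 5386 CPM in its DMSO controls. Markers of immune, endothelial and stromal cells summed to 11.1 to 46.2 CPM in arsenic, 28.9 to 47.6 CPM in cadmium and 4.14 to 27.1 CPM in thiram, below or within the controls' ranges (21.8 to 149.7 and 30.8 to 81.0 CPM). Of these 9 markers, 2 had a median of at least 1 CPM in arsenic, 4 in cadmium and 2 in thiram, against 3 in either control group. In arsenic COL1A1 was called higher (1.20) and DCN lower (-1.98), in thiram DCN was lower (-2.16), and in cadmium none was called by edgeR. The genes CD3E, LUM and VWF had a median of 0 in all 3 chemicals and also in their water and DMSO controls. Of 4 luminal markers tested, ESR1 was higher (4.08) and KRT8 (-0.62) and KRT18 (-0.33) were lower in arsenic, KRT8 was lower in cadmium (-0.80), and GATA3 was higher (0.65) and KRT18 lower (-1.0) in thiram. The median of ESR1 in the water controls was 0, so the size of its fold is uncertain. Beside these marker counts, 41.4% of all genes were called in arsenic, 11% in cadmium and 25.9% in thiram. The part of depth and of these markers in the results was not tested.

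Set directly against each other on their common plate, arsenic and cadmium at 25 µM differed in 26 of the 40 genes, where 8.56% of all genes were called. Arsenic was higher in 25, among them NUPR1 (3.32 ± 0.52), PHGDH (2.20 ± 0.22), EPRS1 (1.96 ± 0.17), CHAC1 (1.88 ± 0.37) and ATF4 itself (1.80 ± 0.24). The median of arsenic minus cadmium on the log2 scale was 1.44 over the 40 genes and 0.81 over all genes. Cadmium was higher in PPP1R15A, by 1.86 ± 0.21. DDIT3, CEBPG and TRIB3 did not pass the test, with arsenic minus cadmium at -0.48 (95% interval -1.092 to 0.136), -0.15 (-0.654 to 0.345) and -0.03.

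Arsenic and thiram were on different plates with separate controls, so their effects were compared as a difference of 2 differences. All 27 genes that thiram raised were also among the 34 that arsenic raised, and both lowered DDIT4 and SLC7A5. IARS1, PSPH and SLC38A2 rose in arsenic and fell in thiram. The 2 effects differed in 24 of 40 genes, against 10.8% of all genes, and arsenic was the higher one in 21. Among those 21 the gap was widest for WARS1 (2.52 ± 0.13), NUPR1 (2.25) and PSPH (2.05). Thiram was the higher one for ASNS (by 3.23 ± 0.97), PPP1R15A (by 0.63) and AARS1 (by 0.56). For TRIB3, CEBPG, SESN2 and STC2, which rose in all 3 chemicals, the differences were not all called: SESN2 differed by 1.12, and the others did not pass the test.

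The rises were steep in dose. Over the 4 doses without controls, the slope per 10-fold dose passed the test for 31 genes upwards and 5 downwards in arsenic (29.7% of all genes), 25 and 5 in thiram (18.5%) and 11 and 8 in cadmium (8.96%). At 2.5 µM none of the 40 was called in arsenic (11 at an unadjusted p under 0.05 with edgeR, 5 called by DESeq2) or in thiram (4 and 0). Of all genes, edgeR called 1.96% at 2.5 µM arsenic and 0.0329% at 2.5 µM thiram. In arsenic 27.5% of the 40 were under the unadjusted 0.05 with edgeR, against 11.8% of all genes. CHAC1 read 1.306 to 1.528 CPM at 2.5 µM arsenic and 224.9 to 239.6 CPM at 25 µM, and 0 to 3.732 CPM at 2.5 µM thiram against 70.14 to 146.2 CPM at 25 µM. ATF4 at 2.5 µM spanned 119.5 to 236.3 CPM in arsenic and 162.6 to 219.1 CPM in thiram, overlapping the controls.

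Cadmium was the exception, with 2 genes higher at 2.5 µM where 0.235% of all genes were called. DDIT3 stood at 12.01, 19.3, 34.18 and 47.35 CPM, all above the water controls (highest 9.158 CPM), and PPP1R15A at 31.23, 59.17, 63.86 and 102.1 CPM, all above 27.05 CPM. The log2 fold changes were 2.02 ± 0.25 (adjusted p = 4.4e-09) and 1.90 ± 0.16 (adjusted p = 1.6e-16). Neither ATF4 (178.2 to 212.6 CPM) nor CHAC1 (0.667 to 1.929 CPM) was called at that dose.

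**Figure D4:**
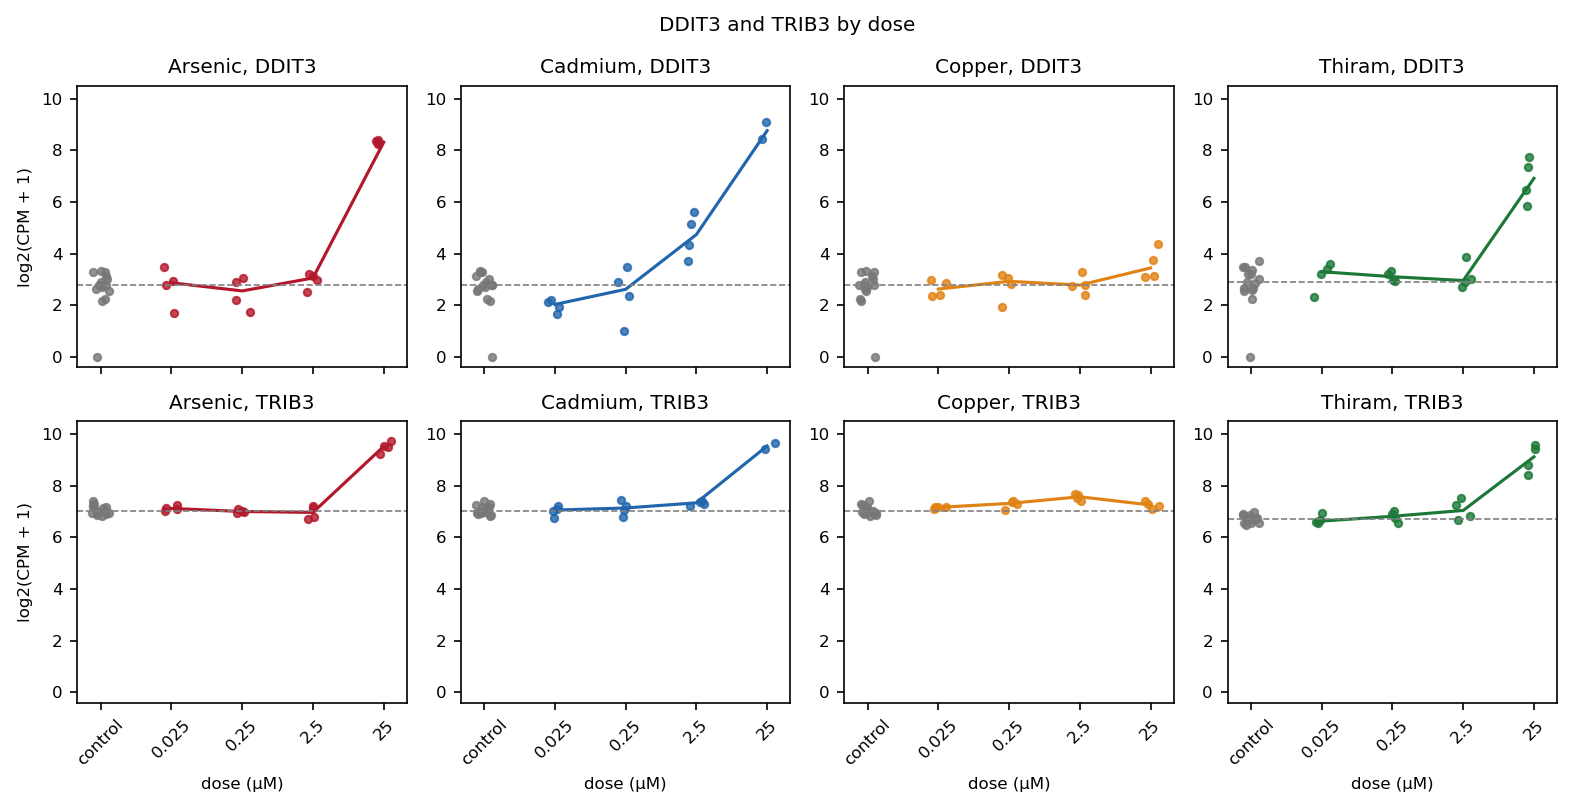
DDIT3 and TRIB3 as log2(CPM + 1) (vertical) in the controls and at the 4 doses in µM (horizontal) of arsenic, cadmium, copper and thiram. Points are libraries, lines join the medians of the doses and the dashed line is the control median. Both genes stay near the controls up to 2.5 µM in arsenic and thiram, while DDIT3 in cadmium reaches a median of 26.74 CPM at 2.5 µM.

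Copper at 25 µM gave a smaller pattern, with 6 genes higher and 2 lower (5.09% of all genes called). The copper and lead values share their water controls with those of arsenic and cadmium. STC2 was at 80.99, 102.8, 103.1 and 128.5 CPM against 45.09 to 77.19 CPM in controls, with no overlap (0.86 ± 0.15, adjusted p = 1.3e-05). DDIT4 was at 451.0, 455.6, 473.4 and 563.0 CPM, below all controls (-0.88 ± 0.15, adjusted p = 2.3e-05). PPP1R15A (0.83), CEBPB (0.61), SLC38A2 (0.43) and PHGDH (-0.49) were also called. So were DDIT3 (7.558 to 19.7 CPM, 0.89, adjusted p = 0.033) and CHAC1 (1.62 to 4.703 CPM, 1.32, adjusted p = 0.0086). For each of these called genes other than STC2 and DDIT4, the copper libraries overlapped the controls. With only the higher numbered water controls 4 of the 8 held, and without either the first or the second copper library 5 did.

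At 2.5 µM copper, TRIB3 was at 168.5, 183.2, 197.0 and 206.6 CPM against 112.7 to 169.5 CPM in the controls (0.52 ± 0.09, adjusted p = 4.2e-05), STC2 rose by 0.55 (adjusted p = 0.020) and SESN2 fell by 0.65 (adjusted p = 0.042, lost without any 1 library), where 3.0% of all genes were called. The slope over dose passed for STC2 (0.22), SLC38A2 (0.23) and PPP1R15A (0.28) upwards and for DDIT4 (-0.23) and PHGDH (-0.17) downwards, against 1.71% of all genes. Library numbers paired the copper wells, and with the number as a block 9 genes passed in place of 5. Without the first or without the second number, 1 gene passed.

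Lead at 25 µM moved 6 genes, 3 in each direction, against 3.85% of all genes called. SLC3A2 (888.4 to 1159 CPM, 0.46), CEBPB (209.6 to 293.6 CPM, 0.48) and TRIB3 (150.9 to 169.7 CPM, 0.30) were higher, and DDIT4 (524.3 to 686.8 CPM, -0.54), IARS1 (228.3 to 300.6 CPM, -0.36) and EPRS1 (298.1 to 337.0 CPM, -0.29) were lower. The lead libraries lay wholly above the controls for 1 gene, SARS1 (195.7 to 220.9 CPM against 156.1 to 193.8 CPM), which the test did not call. The matching share over all genes is not given here, so this position is a description. Leaving out 1 lead library left between 0 and 3 calls. The lead trend passed for 0 genes (9 at an unadjusted p under 0.05 with edgeR, 0 with DESeq2) and for 2 with the number as a block. Without the block, 0.868% of all genes passed. The share under the unadjusted 0.05 with edgeR was 22.5% of the 40 against 9.38% of all genes.

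The remaining chemicals gave almost no calls. DDIT4 fell by 0.34 in MPB at 25 µM (416.9, 703.7, 709.4 and 773.6 CPM against 716.3 to 916.7 CPM, adjusted p = 0.0074, 1.38% of all genes called), a call that was lost without the first library. At 2.5 µM MPB it fell by 0.29 (608.1 to 731.3 CPM, adjusted p = 0.042, 0.915% of all genes). At 0.25 µM, SLC38A2 was higher in PCB153 (0.47, adjusted p = 0.0096, 0.333% of all genes) and CEBPB was higher in PPB (254.3 to 357.9 CPM against 195.7 to 321.7 CPM, 0.36, adjusted p = 0.044, 0.0717% of all genes). The PCB153 libraries held 241.6, 241.6, 265.0 and 433.2 CPM, and without the highest, the third, the call was lost (0.23). The PPB call was lost without the second, the third or the fourth library.

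Mercury and 13 organic chemicals had 0 calls at 25 µM in 560 gene tests with edgeR, of which 63 (11.2%) had an unadjusted p under 0.05, and DESeq2 called 2. Over all genes of the same comparisons that share was 6.28%. At 2.5 µM 17 chemicals had 0 calls (69 of 680 tests or 10.1% under 0.05 against 6.51% of all genes, 8 calls with DESeq2), at 0.25 µM 19 (72 of 760 or 9.47% against 7.25%, 8 calls) and at 0.025 µM all 21 (66 of 840 or 7.86% against 6.36%, 4 calls). Of the dose trends, 17 chemicals had 0 calls (49 of 680 or 7.21% against 5.98%, 3 calls). The comparisons contributed unequally. PFNA at 25 µM had 17 of 40 genes under 0.05 (42.5% against 11.3% of all genes) and 0 calls with DESeq2, with the smallest p for DDIT4 (0.31, adjusted p = 0.14 with edgeR) and NARS1 (0.29, adjusted p = 0.15). The PFNA trend had 14 (11.6% of all genes) and 2 calls with DESeq2, and DDE at 0.25 µM had 21 (26.3% of all genes) and 7 calls with DESeq2. Mercury at 25 µM had 1 (4.36% of all genes) and 0 calls with DESeq2. Over the 77 dosed groups outside DDE and the 3 leading chemicals at 25 µM, groups with calls included, group medians ranged from 135.4 to 227.1 CPM for ATF4, 2.96 to 26.74 CPM for DDIT3, 77.78 to 190.1 CPM for TRIB3, 0 to 4.67 CPM for CHAC1 and 0 to 0.9335 CPM for ASNS. The highest DDIT3 median was that of cadmium at 2.5 µM, and the highest TRIB3 median was that of copper at 2.5 µM.

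The genes varied between controls as well. Water against DMSO controls of plate 3240-AT differed in 8 of 40 genes (4.08% of all genes called), with NUPR1 (0.99), STC2 (0.44), TRIB3 (0.41), PSPH (0.39), TARS1 (0.29) and GARS1 (0.25) higher in water and CEBPB (-0.45) and SLC7A5 (-0.43) lower. Controls also carry library numbers, and the lower numbered controls were deeper, with median totals of 20.9 M against 3.17 M on plate 3153-AT and 17.9 M against 3.18 M on plate 3284-AT. Lower minus higher numbered water controls of plate 3153-AT differed in 19 of the 37 genes that passed the filter there (3 higher, 16 lower, 20.3% of all genes), with SLC7A5 at -0.75, NUPR1 at 0.97 and CEBPB at 0.62.

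Such differences were fewer on the other plates: 3 of 38 genes on 3206-AT (6.07% of all genes, SLC7A5 -0.53) and 5 of 37 on 3284-AT (6.38%, CEBPB 0.86, DDIT4 0.44). On 3240-AT 0 of 38 differed (3 at an unadjusted p under 0.05 with edgeR, 0 with DESeq2), where 0.546% of all genes were called. With lower against higher number as a term in the fit, all 39 arsenic calls and their signs held. Both cadmium 25 µM libraries used were lower numbered, whereas their water controls were of both kinds. The part of depth in the differences between numbers was not tested.

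On the DDE plate the levels of several of these genes differed between libraries of 1 group, by their number in the title. The 8 controls, numbered 9 to 16, held TRIB3 at 1881, 616.1, 338.4, 310.5, 473.4, 669.5, 1437 and 1253 CPM in that order. DDE libraries 1 to 4 (25 µM) held 351.3, 151.7, 137.9 and 137.3 CPM, numbers 5 to 8 (2.5 µM) held 138.8, 134.9, 160.1 and 868.5 CPM, numbers 9 to 12 (0.25 µM) held 428.0, 168.9, 158.0 and 148.0 CPM, and numbers 13 to 16 (0.025 µM) held 141.1, 156.2, 165.3 and 1283 CPM. The high DDE libraries were numbers 1, 8, 9 and 16, one in each dose, and the controls were higher at their first and last numbers than in the middle. CHAC1 had the same shape, at 44.54, 103.6, 35.6 and 107.4 CPM in DDE libraries 1, 8, 9 and 16 and at no more than 11.07 CPM in the other 12.

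**Figure D5:**
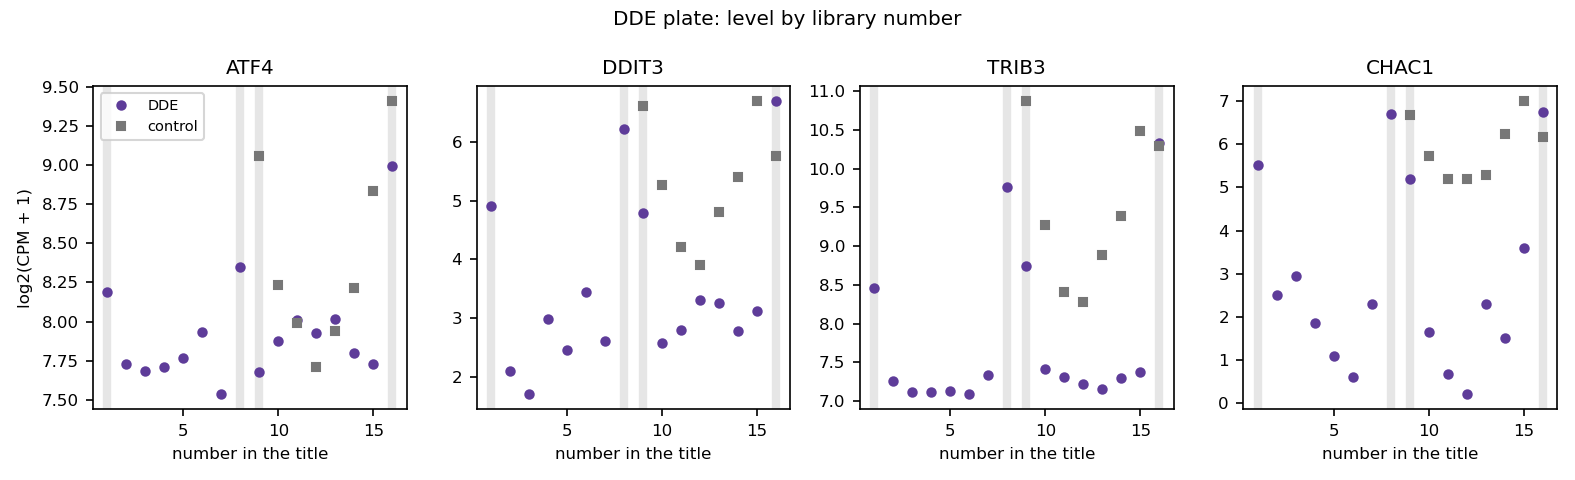
Level as log2(CPM + 1) (vertical) against the library number in the title (horizontal) on the DDE plate, for DDE libraries and for controls, with grey bands at 1, 8, 9 and 16. For DDIT3, TRIB3 and CHAC1 the DDE libraries with these numbers lie above the other DDE libraries, with TRIB3 at 351.3, 868.5, 428.0 and 1283 CPM, and the controls are lowest at numbers 11 and 12 for TRIB3.

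With all libraries, DDE at 25 µM against its controls called 1 gene higher, YARS1 (0.57), and 4 lower, TRIB3 (-2.16), NUPR1 (-2.31), SLC38A2 (-1.91) and CARS1 (-0.73), where 7.77% of all genes were called. At 2.5 µM YARS1 (0.66, adjusted p = 0.049) was the called gene, with 0.496% of all genes called.

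Numbers 1, 8, 9 and 16 were singled out with the levels of these genes known, so the following counts are descriptions. Without these numbers in both arms, the 25 µM count rose to 1 higher and 17 lower (19.2% of all genes), with CHAC1 at -3.73, DDIT3 at -3.42, TRIB3 at -2.18, SESN2 at -2.19 and ATF4 at -0.50. At the lower doses, where this alternative was added after the data were seen, it gave 1 higher and 19 lower at 2.5 µM (20.8%), 1 higher and 14 lower at 0.25 µM (17.6%) and 1 higher and 16 lower at 0.025 µM (14.9%). The called genes numbered between 15 and 20 at the 4 doses, with no order by dose. Without the second or without the third 25 µM library, 0 genes were called with all other libraries kept. Solvent, chemical and position cannot be told apart on this plate, and the part of well position in the values was not tested beyond these fits.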

How the data were processed

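Each library was prepared from 1 well by plexWell, which marks wells and plates with barcodes, and was sequenced on a NovaSeq, per the labels' protocols. The authors deposited raw counts per gene symbol. The submitters' processing notes name FastQC, MultiQC, STAR, featureCounts and GRCh38; their versions, and the annotation, strand setting and filters, were not stated. The 40 genes and the companion lists were chosen with earlier results of these data known.

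From the counts, edgeR 4.0.16 with limma 3.58.1 in R 4.3.3 was fitted to all groups of a plate: genes with low counts were removed (filterByExpr by group, minimum count 10, minimum total 15), libraries were TMM-scaled, the common dispersion was taken from the most abundant 5% of genes, and quasi-likelihood tests were adjusted by Benjamini-Hochberg over all genes, with a call at an adjusted p under 0.05. This left 13921 genes on the DDE plate, 24295 on 3153-AT, 22301 on 3206-AT, 19468 on 3240-AT and 21307 on 3284-AT. CPM values use the scaled library sizes, and log2 fold changes are fitted values. Standard errors were derived from the test, as the absolute log2 fold change divided by the square root of its quasi-likelihood F statistic. The 95% intervals come from these standard errors by the normal quantile. The dose trend is the log2 slope per 10-fold dose over the 4 doses without controls. No 2 libraries were identical.

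Alternatives were RLE scaling, no filter, DESeq2 1.42.0, 2 groups alone, the lower or higher numbered libraries alone or as a term, each replicate left out, and the replicate number as a block in the trends. Same-numbered libraries deviated together in copper (lowest correlation 0.143), lead (0.273), mercury (0.244) and PFOA (0.144), where every same-number correlation was over 0.1, and the numbers were taken to pair these wells. In the other chemicals at least 1 was at or below 0.1, although the median was higher for same than for other numbers in each, and they were treated as unpaired. The steps were tested on simulated data. Motifs were searched in RefSeq windows of GRCh38.p14, and exon overlaps come from GENCODE v29.

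ATF4, DDIT3, TRIB3, ASNS and CHAC1 were always to be described by library. In arsenic, cadmium and thiram at 25 µM the highest and lowest called gene of each role group were to be named, and in every other group all called genes up to 6 by smallest p. Other values were chosen after they were seen.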

Additional observations from a re-analysis of the deposited data

Results flagged for a closer look

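Pairs of a named gene and a group of 4 to 10 libraries were tested for a library far from the others. In 3 of 54 such pairs the highest library stood apart. Chance alone gives about 1 in 20, so this share is near that of chance. SLC38A2 read 875.4 CPM and TRIB3 read 351.3 CPM in the same DDE 25 µM library, number 1. SLC38A2 read 433.2 CPM in 1 PCB153 0.25 µM library. That DDE library was also the highest of its dose for DDIT3 (29.03 CPM) and CHAC1 (44.54 CPM).

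The effects of arsenic and thiram at 25 µM, each against its own plate's controls, differed for 24 genes by a test of the difference itself (edgeR's quasi-likelihood test with Benjamini-Hochberg adjustment). Chemical and plate cannot be told apart in this difference, since each chemical was on 1 plate and in its own solvent. Arsenic minus thiram on the log2 scale was 0.739 for ATF4, 1.465 for DDIT3 and 2.248 for NUPR1 among the factors, and 1.427 for CHAC1, 1.117 for SESN2 and -0.6295 for PPP1R15A among the effectors. Among the enzymes it was 1.393 for PHGDH, 0.5416 for PSAT1, 2.051 for PSPH, 0.3933 for MTHFD2, 1.095 for ALDH1L2, 1.621 for PCK2 and -3.226 for ASNS, and among the carriers 1.09 for SLC38A2. Among the synthetases it was 2.52 for WARS1, 1.45 for GARS1, 0.9124 for CARS1, 0.8032 for IARS1, 0.8011 for SARS1, 0.8006 for YARS1, 0.7518 for NARS1, 0.5917 for EPRS1, 0.5916 for MARS1 and -0.5634 for AARS1.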

How the results depend on the processing

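The counts and trends of arsenic, cadmium and thiram, arsenic against cadmium, and the arsenic against thiram effects stayed within 1.5 times under every alternative run. The sign of 1 gene turned: SLC3A2 in thiram, -0.095 in the higher numbered libraries alone. For the counts that moved by more, the cause was not tested. Copper at 25 µM (8 genes) gave 4 with the higher numbered controls, 2 in the higher and 16 in the lower numbered libraries, and 5 to 8 leaving out 1 library. Lead (6) gave 3 with the higher numbered controls and 0 to 3 leaving out 1. Mercury (0) gave 1 in the lower numbers. DDE (5) gave 10 with DESeq2, 21 with a position term, 18 without numbers 1, 8, 9 and 16, and 0 to 9 leaving out 1. MPB (1) gave 0 in the higher numbers, 2 in the lower numbers, 2 without the filter and 0 to 1 leaving out 1. The other 13 chemicals (0) gave 1 with 2 groups alone, 2 with DESeq2, 6 and 5 in the higher and lower numbers, 4 without the filter and 3 with the number as a term.

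Summed over chemicals, where a comparison without a fit under a setting kept its calls, 2.5 µM (7) gave 14 with DESeq2, 23 and 20 in the higher and lower numbers, 20 with the number as a term, 23 with the position term, 26 without the 4 numbers and 4 to 21 leaving out 1. At 0.25 µM (2) the sums were 1 with 2 groups alone, 9 with DESeq2, 9 and 12 in the higher and lower numbers, 4 without the filter, 23 with the position term, 17 without the numbers and 0 to 7 leaving out 1. At 0.025 µM (0) they were 4 with DESeq2, 9 and 9 in the higher and lower numbers, 10 without the filter, 11 with the position term, 17 without the numbers and 0 to 16 leaving out 1. Below 25 µM, the DDE position settings were chosen after seeing the data.

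The copper trend (5) gave 2 and 10 in the higher and lower numbers, 8 with the number as a term, 9 with the replicate block and 1 to 6 leaving out 1. The lead trend (0) gave 2 and 5 in the higher and lower numbers, 2 with the number as a term and 2 with the block. The other 16 trends (0) gave 3 with DESeq2, 2 and 2 in the higher and lower numbers, 2 without the filter, 2 with the number as a term, 5 with the block and 0 to 1 leaving out 1. Water against DMSO controls (8) gave 3 in the higher and 3 in the lower numbers and 4 to 8 leaving out 1, and lower against higher numbered 3284-AT controls (5) gave 9 with DESeq2 and 8 with RLE scaling. RLE scaling moved the median of all arsenic genes to 0.14 and of cadmium genes to -1.25. The 2 cadmium libraries of 1.43 M and 1.45 M counts limit what is detectable for genes under 1.99 CPM.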
